A study of Mus musculus with 12 samples.

Results

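The 10 genes described here mark the epithelium of the mammary gland, mostly its luminal cells, and the tumors that arise from it: *Epcam*, *Krt7*, *Krt8*, *Krt18*, *Krt19*, *Krt14*, *Csn3*, *Lcn2*, *Wfdc18* and *Elf5*. They are 10 of the 31053 genes in both deposited count matrices and were chosen by name, with earlier results of these data known. Their transcripts were counted in single cells of mouse breast tumors that had been enriched for immune cells, so the tumor epithelium was present as a remnant of the bead selection. The levels of the 10 genes and their presence together were measured in cells without a UMI (a unique molecular identifier, standing for 1 captured transcript) of *Ptprc*, the pan-leukocyte gene for CD45, and with at least 1 UMI of *Cdh1*, which encodes E-cadherin. These cells are called the epithelial gate. The same genes were then counted in macrophages and T cells, where most of them are not known to be transcribed. *Lcn2* is an exception, being made by neutrophils and macrophages as well.

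Keratins are intermediate filament proteins that assemble as pairs of a type II and a type I chain. Krt8 and Krt7 are type II chains of simple epithelia and Krt18 and Krt19 are type I chains, while Krt14 is the type I chain of basal and myoepithelial cells. EpCAM is an epithelial adhesion molecule. Csn3 is kappa-casein, a milk protein, Lcn2 is the iron-siderophore carrier lipocalin 2, and Wfdc18 is a secreted whey acidic protein family member. Elf5 is an ETS transcription factor of luminal progenitor and alveolar cells.

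All mice carried the polyoma middle T oncogene under the MMTV promoter (MMTV-PyMT), which is active in mammary epithelium, and were either wild-type for PAR2 or PAR2 G37I mutant, the mutant being deficient in signaling by coagulation factor Xa through PAR2. CD11c+ cells of late-stage tumors and CD4/CD8 T cells of mid-size tumors were bead-selected, frozen and thawed, with 3 wild-type and 3 mutant samples of each selection, all from female mice. The deposited files hold 1 matrix of CD11c-selected and 1 of CD4/CD8-selected cells. Cell barcodes carry no sample name, so genotypes were not compared, each matrix was taken as 1 sample without replicates, and no test was run.

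After barcodes with under 200 detected genes had been left out, 11639 CD11c-selected and 22806 CD4/CD8-selected cells remained, with 123642015 and 135965765 UMIs. In each matrix the barcodes run through the alphabet 6 times. These stretches, called barcode runs, held between 13314063 and 24231244 UMIs of CD11c-selected cells and between 16203038 and 30168668 of CD4/CD8-selected cells, and which sample a run came from is not known here. Within the matrices 76 and 51 barcodes were repeated, and 92 barcodes occurred in both. Doublets were neither called nor removed. Intervals given below are exact 95% intervals, Poisson for levels and Clopper-Pearson for shares, and cover counting error only.

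*Krt8* and *Krt18*, partners in the filament, lie on chromosome 15 in GRCm38, *Krt8* at chr15:101996698-102004482 on the minus strand and *Krt18* at chr15:102028180-102032027 on the plus strand, and 23697 bases separate them. *Krt7* lies on the same chromosome at chr15:101411043-101430313. *Krt19* and *Krt14* are both on the minus strand of chromosome 11, at chr11:100140810-100148665 and chr11:100203162-100207548, with 54496 bases between them. *Wfdc18* lies at chr11:83709015-83711348, *Epcam* at chr17:87635979-87651129, *Csn3* at chr5:87925579-87932665, *Lcn2* at chr2:32384633-32388252 and *Elf5* at chr2:103411688-103450989. All 10 are annotated as protein coding in GENCODE M21.

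The 250 bases before the start of the filament partners, whose levels went together from cell to cell, and of *Wfdc18*, first or second in level among the 10, are shown from the RefSeq promoter table (GRCm38.p6), 5′ to 3′ on the strand of the gene. The windows are chr15:102004343-102004592 (minus strand), chr15:102027966-102028215 (plus strand) and chr11:83708754-83709003 (plus strand). The start is the one used by RefSeq. The windows of *Krt8* and *Krt18* partly overlap the GENCODE gene spans given above. Capitals mark matches to the TATA box letters TATAAA or the ETS letters AGGAAG, the latter read from the opposite strand as CTTCCT.
Krt8: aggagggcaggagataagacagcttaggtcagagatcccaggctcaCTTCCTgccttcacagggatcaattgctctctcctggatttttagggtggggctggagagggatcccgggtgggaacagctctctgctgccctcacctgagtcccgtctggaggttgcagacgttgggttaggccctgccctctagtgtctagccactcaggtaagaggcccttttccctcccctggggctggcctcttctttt
Krt18: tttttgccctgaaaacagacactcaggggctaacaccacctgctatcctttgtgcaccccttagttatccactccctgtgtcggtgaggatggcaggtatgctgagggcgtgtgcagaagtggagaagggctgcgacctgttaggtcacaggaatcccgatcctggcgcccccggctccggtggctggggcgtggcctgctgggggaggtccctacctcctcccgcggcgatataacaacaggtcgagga
Wfdc18: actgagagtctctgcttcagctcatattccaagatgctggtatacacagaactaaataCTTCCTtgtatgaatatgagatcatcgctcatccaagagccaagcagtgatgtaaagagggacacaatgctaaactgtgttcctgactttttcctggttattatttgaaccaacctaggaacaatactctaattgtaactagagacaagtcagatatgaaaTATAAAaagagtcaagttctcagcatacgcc
TATAAA was found in 1 of 9 promoters of 8 of the genes, that of *Wfdc18*, beginning 31 bases before the start, and in 12.4% of all 32851 promoters, both strands searched. AGGAAG, an ETS motif and so of the family of Elf5, was found in 4 of the 9 (*Krt7*, *Krt8*, *Lcn2* and *Wfdc18*) and in 29.5% of all. The GC box letters GGGCGG were found in 3 of the 9 (*Epcam*, *Krt7* and *Lcn2*) and in 32.7% of all, and in none of the windows shown.

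The epithelial gate held 305 CD11c-selected cells (2.62% of the matrix) and 363 CD4/CD8-selected cells (1.59%), with a median of 13470 and 9392 UMIs per cell. These few cells carried 79.3% and 81.7% of all UMIs of the 10 genes. Summed over the 10 genes, the level was 31993 UMIs per 1000000 UMIs of the gate (CPM; interval 31859 to 32128) in CD11c-selected and 34637 CPM (34510.3 to 34764) in CD4/CD8-selected cells. Since each UMI stands for 1 molecule, levels of different genes were compared without scaling by length.

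Over all gate cells pooled, the secreted products stood highest. *Wfdc18* was at 7321 CPM (7257 to 7386) in CD11c-selected and 7705 CPM (7645 to 7765) in CD4/CD8-selected gate cells. *Lcn2* was at 6318 CPM (6259 to 6378) and 7940.5 CPM (7880.01 to 8001), and so came first in the CD4/CD8-selected and second in the CD11c-selected matrix. *Csn3* followed at 4911 CPM (4859 to 4964) and 5282 CPM (5233 to 5332). The order of *Wfdc18* and *Lcn2* was not the same in all barcode runs: *Wfdc18* was higher in 4 of 6 runs of CD11c-selected and 3 of 6 runs of CD4/CD8-selected gate cells, so the pooled order is not read as a difference between the matrices.

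Among the keratins the simple epithelial pair was highest. *Krt8* was at 4422 CPM (4373 to 4473) and 4022 CPM (3979 to 4066), and *Krt18* at 3239 CPM (3196 to 3282) and 3606 CPM (3565 to 3647). *Krt19* reached 1943 CPM (1910.1 to 1977) and 1680 CPM (1652 to 1708). *Krt7* was lower at 445 CPM (429 to 461) and 391 CPM (378 to 405), and the basal keratin *Krt14* lowest among the keratins in CD11c-selected cells at 196 CPM (186 to 207). In CD4/CD8-selected cells *Krt14* was at 406 CPM (393 to 420.2), so its interval overlapped that of *Krt7* there. The adhesion gene *Epcam* was at 3142 CPM (3099.9 to 3184) and 3536 CPM (3495 to 3576). *Elf5*, a transcription factor gene, was lowest of the 10 at 55.2 CPM (49.8 to 61.1) and 67.4 CPM (61.9 to 73.2).

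**Figure D1:**
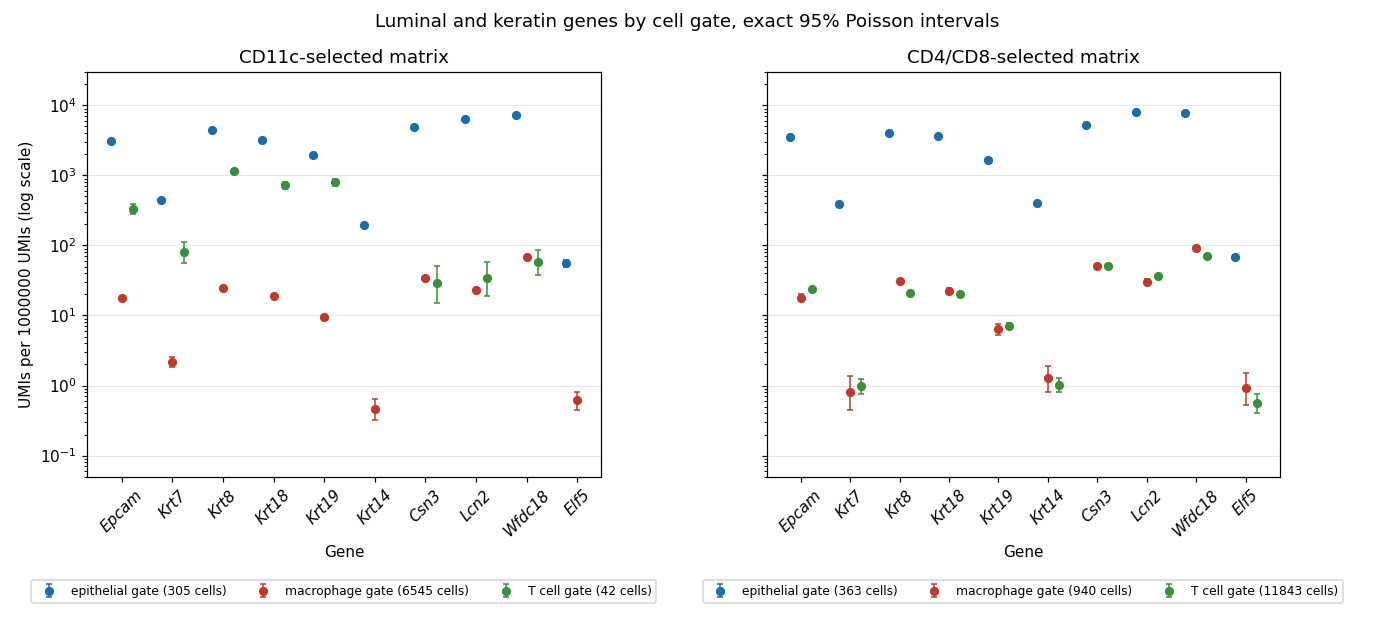
Level of each of the 10 genes in UMIs per 1000000 UMIs (log scale) in the epithelial, macrophage and T cell gates of both matrices, with exact 95% Poisson intervals; *Krt14* and *Elf5* had no UMI in the CD11c-selected T cell gate and have no point there. Epithelial gate points sit above all others for each gene, and 1 cell holds 1230 of the 1303 UMIs behind the CD11c-selected T cell gate.

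The genes were also found together in the same cells. In CD11c-selected gate cells, *Krt8* and *Krt18* were each detected in 246 of 305 cells (80.7%), and 236 cells had both. The same pair was found in 236 of 363 CD4/CD8-selected gate cells each (65.0%), with 226 cells having both. *Epcam* and *Wfdc18* were each detected in 81.6% of CD11c-selected gate cells, and in 64.2% and 67.5% of CD4/CD8-selected gate cells. *Krt14* was the least often detected keratin, in 24.9% and 26.7% of gate cells, and *Elf5* was found in 36.1% and 34.2%. After thinning each cell to 1000 UMIs, which left out 22 and 24 shallower gate cells, *Krt8* was still found in 77.0% and 59.6% of gate cells and *Elf5* in only 6.01% and 3.24%. By comparison, thinned macrophages had *Krt8* in 2.15% (CD11c-selected) and thinned T cells in 1.84% (CD4/CD8-selected).

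The number of the 10 genes per gate cell fell into separate heaps. In CD11c-selected cells 243 of 305 gate cells (79.7%; interval 74.7% to 84.0%) had 5 or more of the genes, 41 (13.4%) had 0 or 1, and 21 lay between. In CD4/CD8-selected cells 227 of 363 (62.5%; 57.3% to 67.5%) had 5 or more, 112 (30.9%) had 0 or 1, and 24 lay between. All 10 genes were found in 34 and 48 cells. The heap at 0 and 1 lay among shallow cells, with a median of 2054 and 2894.5 UMIs. Of the gate cells with 10000 or more UMIs, 168 of 174 CD11c-selected and 178 of 180 CD4/CD8-selected cells had 5 or more genes. Thinned to 1000 UMIs, 70.0% of 283 and 56.3% of 339 cells still had 5 or more.

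**Figure D2:**
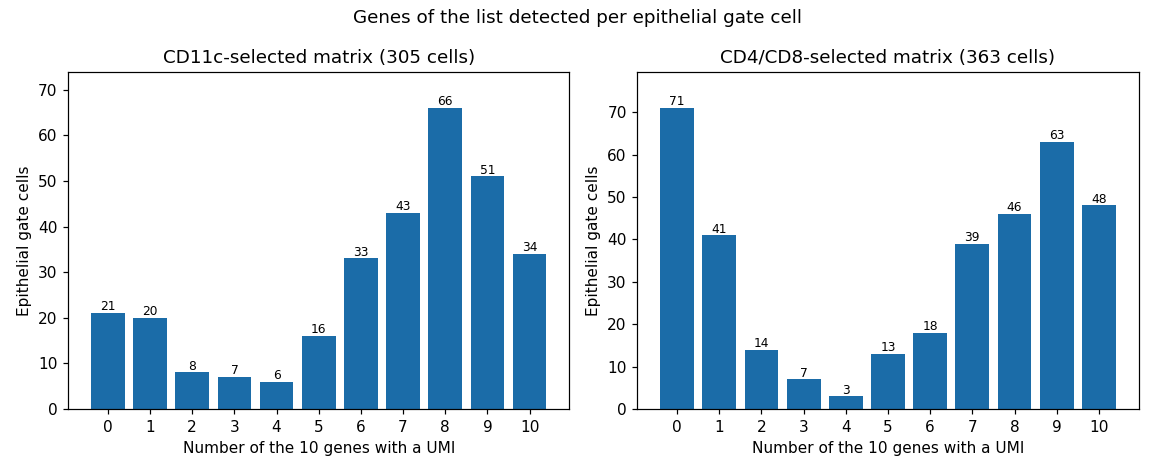
Number of epithelial gate cells (y axis) by how many of the 10 genes had at least 1 UMI in the cell (x axis), in each matrix. Most cells lie at 5 or more genes, 243 of 305 and 227 of 363, and a smaller heap lies at 0 and 1.

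The gate was therefore checked against markers. Gate cells with 5 or more of the genes carried 14 of 14 other epithelial adhesion and regulator genes at 10 CPM or more in both matrices. The tight junction gene *Cldn3* was at 740.4 and 945 CPM, *Cldn4* at 971 and 869 CPM, *Cldn7* at 503 and 553 CPM, and the serine protease inhibitor gene *Spint2* at 657 and 631 CPM. The complement gene *C1qa* was at 10.1 and 7.60 CPM and *Cd3e*, a subunit of the T cell receptor complex, at 0.308 and 1.27 CPM in these cells. The list of 10 macrophage genes summed to 359 and 259 CPM in them, most of it *Apoe* (278 and 190.2 CPM), and that of 10 T cell genes to 5.23 and 23.2 CPM. Gate cells with 0 or 1 of the genes did not have this profile. *Cldn3* had no UMI in the 41 CD11c-selected and 3 UMIs in the 112 CD4/CD8-selected cells of this kind.

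Cells with 0 or 1 of the genes instead carried leukocyte transcripts, although no *Ptprc* UMI had been counted in them. *C1qa* stood at 1683 CPM and was found in 27 of the 41 CD11c-selected cells, and *Cd74*, the invariant chain of MHC class II, stood at 6656 CPM and was found in 38 of them. Of the 112 CD4/CD8-selected cells, 71 had *Cd3e* (507 CPM), 76 had *Cd8a* (572 CPM) and 88 had the T cell receptor gene *Trbc2* (1601 CPM). Stromal transcripts were counted as well, in few cells. The 6 fibroblast genes summed to 3439 and 1527 CPM, with all 272 and 232 UMIs of the collagen gene *Col3a1* in 1 cell of each matrix, and the 5 endothelial genes to 1030.3 and 428 CPM, with *Cdh5* (VE-cadherin) in 1 and 3 cells. The 21 and 24 cells with 2 to 4 of the genes were mixed. In them the 10 basal and myoepithelial genes summed to 3846 and 139 CPM, against 438 and 308 CPM in cells with 5 or more. The macrophage genes summed to 5625 and 241 CPM and the T cell genes to 7.41 and 6259 CPM. The gate as defined thus held epithelial cells, a minority of cells with macrophage or T cell markers and a few with stromal markers. Results below on differences among epithelial cells use the 243 and 227 cells with 5 or more of the genes. That choice leaves out the basal transcripts of the cells with 2 to 4. *Cdh1* itself was found in 24.8% of the 11843 T cells of the CD4/CD8-selected matrix, at 55.7 CPM against 367 CPM in the epithelial gate.

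Lists of other mammary genes, picked with earlier results of these data known, were counted in the cells with 5 or more of the genes. Of 13 milk and alveolar genes, 6 were at 100 CPM or more in both matrices. *Trf* (transferrin) was at 2688 and 2404 CPM, *Ltf* (lactoferrin) at 1553 and 1630.5 CPM, *Mfge8* at 851 and 775 CPM, *Lalba* (alpha-lactalbumin) at 162 and 277 CPM, *Spp1* (osteopontin) at 3246 and 8170.5 CPM, and *Muc1*, a cell surface mucin, at 136 and 177 CPM. *Spp1* is not particular to epithelium and was at 4352 and 9239 CPM in the macrophage gate. The other caseins were low or absent: *Csn1s1* was at 48.9 and 15.1 CPM, and *Csn2* (beta-casein) had no UMI in the CD11c-selected cells, which allows up to 0.461 CPM, and 5 UMIs, all in 1 cell, in the CD4/CD8-selected cells. *Csn3* was thus counted at a high level in cells almost without these caseins.

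Of 7 luminal progenitor genes, 5 were at 100 CPM or more in both matrices, among them *Cd14* at 624 and 643 CPM, *Kit*, a receptor tyrosine kinase, at 149 and 111 CPM, and *Aldh1a3* at 156 and 133 CPM. *Cd14* was higher in the macrophage gate, at 1865 and 1101 CPM. Of 8 hormone sensing luminal genes, 3 were at this level, including the luminal transcription factor *Gata3* at 173 and 166 CPM. The receptor genes *Esr1* and *Pgr* were at 19.8 and 19.2 CPM in CD11c-selected and at 15.6 and 17.1 CPM in CD4/CD8-selected cells. Of 10 basal and myoepithelial genes, 2 were at 100 CPM or more in CD11c-selected and 1 in CD4/CD8-selected cells. In gate cells with only 2 to 4 of the genes, 6 and 1 were at this level. Among cells with 5 or more, the basal genes were found in few cells. *Krt5*, the usual partner of *Krt14*, had 169 UMIs in 8 cells and 236 UMIs in 6 cells. *Acta2*, smooth muscle actin, was at 109 and 61.7 CPM and found in 17 of 243 and 33 of 227 cells.

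Among cells with 5 or more of the genes, *Epcam*, *Krt8* and *Krt18* spread least, while *Krt7*, *Krt19*, *Krt14* and the secreted products spread widely. *Epcam* was at a median of 3175 CPM over the 243 CD11c-selected cells, with a range from 1277 (10th percentile) to 5316 CPM (90th percentile), and *Krt8* at 4038 CPM (1382 to 8036). *Csn3* spread from 0 to 15769 CPM between the same percentiles around a median of 4470.3 CPM, and *Wfdc18* from 47.3 to 24045 CPM around 3600.5 CPM. The highest single cell for *Wfdc18* had 123886 CPM. *Krt7* was at 0 in 60 of the 243 cells, against 4 for *Krt18*. *Krt19* was at 0 in 88 of the 243 cells and at 5971 CPM at the 90th percentile, and the 25 cells with most *Krt19* held 68.0% of its UMIs. *Krt14* was at 0 in 169 cells, and the 25 cells with most *Krt14* held 84.2% of its UMIs, against 41.3% for *Epcam*.

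The 227 CD4/CD8-selected cells gave the same picture. *Epcam* had a median of 3620.1 CPM (1420 to 7044 CPM between the 10th and 90th percentiles) and *Wfdc18* one of 4274 CPM (27.1 to 21132 CPM). *Krt19* was at 0 in 59 cells, *Elf5* in 103 and *Krt14* in 132, and the 23 cells with most *Krt14* held 72.5% of its UMIs.

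From cell to cell, *Krt8* went with *Krt18*, *Krt7* with *Krt19*, and the secreted products with one another. Pearson's r was taken over log levels (per 10000 UMIs) of cells with 5 or more genes and at least 1000 UMIs, 231 CD11c-selected and 224 CD4/CD8-selected cells. It is given as a description, since the cells of a matrix share libraries and differ in depth, and the choice of cells by the same genes bears on it. The filament partners *Krt8* and *Krt18* had the highest or second highest r of the 45 pairs, 0.69 and 0.81. *Krt7* and *Krt19* had an r of 0.54 and 0.66. Among the secreted products, *Csn3* and *Lcn2* had an r of 0.73 and 0.76, *Csn3* and *Wfdc18* of 0.63 and 0.66, and the regulator *Elf5* had one of 0.44 and 0.55 with *Wfdc18*.

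*Epcam* had an r of 0.39 and 0.35 with *Lcn2* and of -0.24 and -0.13 with *Krt19*. Between the secreted products and the keratins *Krt7* and *Krt19*, r was negative. *Krt19* and *Lcn2* had an r of -0.53 and -0.66, *Krt7* and *Csn3* of -0.51 and -0.53, and *Krt7* and *Lcn2* of -0.47 and -0.55. *Krt8* and *Krt18* had weak values with the secreted products and *Elf5*, between -0.22 and -0.01. With the 168 and 178 cells of 10000 or more UMIs alone, r of *Krt19* and *Lcn2* was -0.61 and -0.70. Within runs of at least 10 such cells it was below 0 in 3 of 4 runs of CD11c-selected cells (-0.80 to 0.32) and in 6 of 6 runs of CD4/CD8-selected cells (-0.85 to -0.35). The pairs *Krt7* and *Lcn2*, *Krt7* and *Csn3*, and *Krt19* and *Csn3* were below 0 in as many runs. Their highest r in a CD11c-selected run was 0.20, 0.24 and 0.14. Pairs of secreted products were above 0 in each such run. Their lowest r was 0.18 for *Csn3* and *Wfdc18* (CD11c-selected) and 0.16 for *Lcn2* and *Wfdc18* (CD4/CD8-selected). Over all gate cells of 1000 or more UMIs, which include the cells with 0 or 1 gene, r of *Krt19* and *Lcn2* was -0.14 and 0.06.

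**Figure D3:**
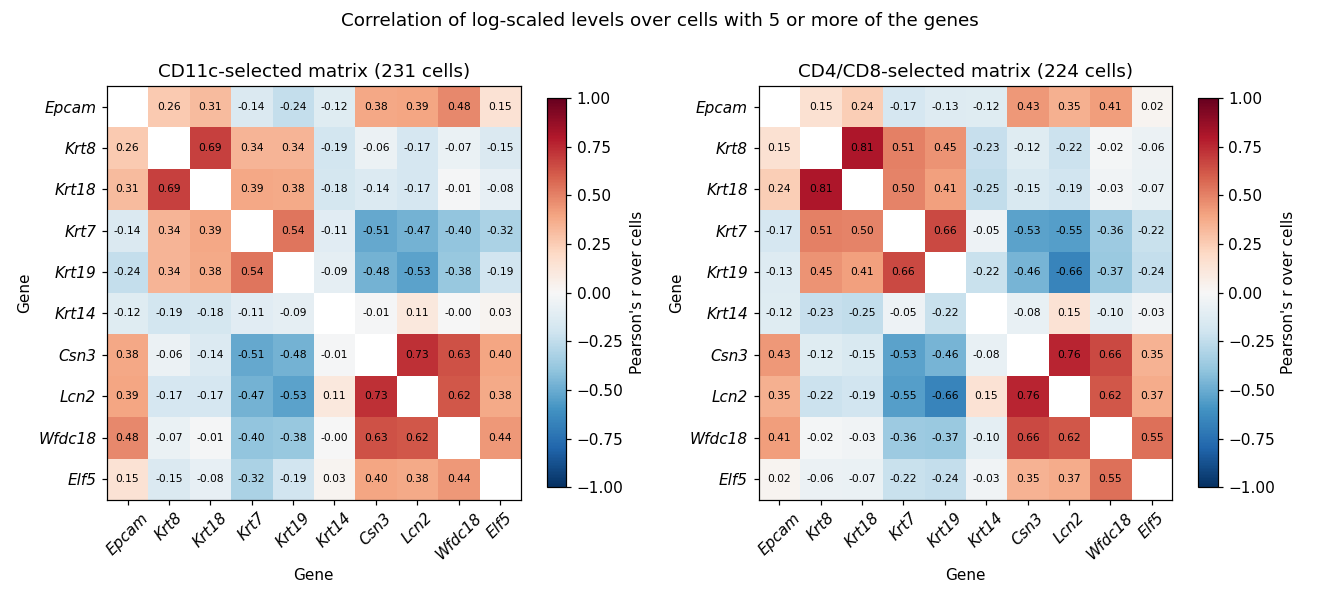
Pearson's r of log-scaled levels for each pair of the 10 genes over cells with 5 or more of them, 231 CD11c-selected (left) and 224 CD4/CD8-selected (right); red is positive, blue negative and the diagonal is blank. *Krt8* with *Krt18* (0.69 and 0.81) and *Csn3* with *Lcn2* (0.73 and 0.76) are the deepest red off-diagonal cells, and *Krt19* with *Lcn2* (-0.53 and -0.66) the deepest blue.

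The division was followed in other genes by setting deep cells (10000 or more UMIs, 5 or more of the genes) with and without a *Krt19* UMI side by side, a split made after the values had been seen. There were 129 and 39 such CD11c-selected cells and 139 and 39 CD4/CD8-selected cells, with a median of 31164 against 17003 and 33750.0 against 19062 UMIs. *Csn3* was at 4588 CPM in CD11c-selected cells with *Krt19* and 7306 CPM in those without, and at 5007 against 8536 CPM in CD4/CD8-selected cells. *Krt7* went the other way, at 500.5 against 259 CPM and 465 against 116 CPM. Within runs the order of *Krt7* was the same in 5 of 6 runs of CD11c-selected and 6 of 6 of CD4/CD8-selected cells, while *Csn3* was lower with *Krt19* in only 4 of 6 and 3 of 6 runs. *Lcn2* was lower with *Krt19* in 3 of 6 runs of each matrix, and *Wfdc18* in 2 of 6 and 3 of 6. In 4 runs of each matrix the class without *Krt19* held 5 or fewer cells. With any 1 run left out, the pooled levels of *Csn3* and *Lcn2* were still lower with *Krt19* in both matrices. *Wfdc18* was higher with *Krt19* once run 3 of CD11c-selected cells was left out (9730 against 8639 CPM). The same was so without run 4 of CD4/CD8-selected cells (7612 against 6734 CPM). With any other run left out, *Wfdc18* was lower with *Krt19*.

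Several hormone related genes were higher in deep cells with *Krt19*. *Prlr* and *Wnt4* were so in 6 of 6 runs of both matrices. *Cited1*, a transcriptional coregulator, was at 190.2 CPM (41 of 129 cells) against 0 UMIs in 39 CD11c-selected cells, which allows up to 3.50 CPM, and at 149 CPM (32 of 139 cells) against 3.03 CPM, from 3 UMIs of 1 cell, in CD4/CD8-selected cells. Without run 3, *Cited1* was at 53.1 CPM in the CD11c-selected cells with *Krt19*. *Wnt4*, a ligand induced by progesterone, was at 85.3 against 3.50 CPM and 103 against 8.08 CPM. The prolactin receptor gene *Prlr* was at 359.7 against 50.2 CPM and 396 against 53.6 CPM. *Prlr* was 1 of the 7 luminal progenitor genes, not of the hormone sensing list. With *Prlr* included, those 7 genes summed to 1539 against 1463 CPM and 1578 against 1196 CPM. Without *Prlr*, the rest of that list summed lower with *Krt19* in CD11c-selected cells and nearly equal in CD4/CD8-selected cells, so it did not follow *Prlr*. *Pgr* had 124 UMIs in cells with *Krt19* and 0 in those without in the CD11c-selected matrix, and 133 against 1 in the CD4/CD8-selected matrix, where it was higher with *Krt19* in 4 of 6 runs. These counts are not scaled, and the classes held 5346788 against 856413 UMIs and 6633558 against 989717 UMIs. *Gata3* did not follow, at 171 against 184.5 CPM and 169 against 164 CPM. The greater depth of the cells with *Krt19* moved with these detections, and its part in them was not tested. *Krt5* lay on the other side, at 18.0 against 78.2 CPM and 0 against 234 CPM, from at most 5 cells in a class. Without run 3 of the CD11c-selected matrix its pair was 0 against 31.1 CPM, and without run 6 of the CD4/CD8-selected matrix 0 against 109 CPM. *Krt14* was at 180.3 against 314 CPM and 329 against 1111 CPM, and was higher without *Krt19* in 3 of 6 and 4 of 6 runs.

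Most cells with *Krt14* also had luminal genes, and their pooled level of *Krt19* was lower. Of the 76 CD11c-selected gate cells with *Krt14*, 75 had *Lcn2*, 57 had *Krt19* and 46 had *Elf5*. Of the 97 CD4/CD8-selected gate cells with *Krt14*, 95 had *Lcn2*, 70 had *Krt19* and 68 had *Elf5*. *Krt19* was at 965 CPM in cells with 5 or more genes and *Krt14* and 2989.9 CPM in those without *Krt14* in the CD11c-selected matrix, and at 969 against 2816 CPM in the CD4/CD8-selected matrix. The share of cells with a *Krt19* UMI was not lower. In the CD11c-selected matrix it was higher with *Krt14*, at 57 of 74 against 98 of 169 cells. In the CD4/CD8-selected matrix it was nearly equal, at 70 of 95 against 98 of 132 cells. Cells with 5 or more genes and *Krt14* were deeper, with a median of 32811 UMIs against 14876 without *Krt14* in the CD11c-selected and 34674 against 18435 in the CD4/CD8-selected matrix. Over cells, r of *Krt14* with each of the other 9 genes lay between -0.19 and 0.11 (CD11c-selected) and between -0.25 and 0.15 (CD4/CD8-selected), values too weak to be read.

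The genes outside the list with the most similar pattern were sought by r over the 283 CD11c-selected gate cells with 1000 or more UMIs, and their r over 339 CD4/CD8-selected gate cells is given after it. *Epcam* was most like *Plet1*, a surface protein gene of epithelial progenitors (0.78 and 0.87), and *Krt18* most like *Cldn3* (0.76 and 0.90). *Krt8* was most like *Lmna*, the gene of the nuclear lamin A/C (0.72 and 0.81). *Lcn2* was most like *Trf* (0.84 and 0.92) and *Csn3* most like *Igfbp5*, an insulin-like growth factor binding protein gene (0.79 and 0.83). *Krt19* was most like *Wfdc2*, a secreted protein of the family of Wfdc18 (0.76 and 0.68), and *Krt7* most like *Cldn4* (0.61 and 0.64). *Krt14* had no close match, with *Tpm2*, a tropomyosin gene, first (0.47 and 0.38) and *Krt17*, a basal keratin gene, second (0.39 and 0.51), and *Elf5* had *Atp6v1b1* first (0.51 and 0.40). All these values include the contrast between cells with many and with 0 or 1 of the genes.

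Across the 6 barcode runs of each matrix, given here as a spread only, the summed level in cells with 5 or more genes stayed within 30420.3 to 48235 CPM (CD11c-selected) and 32078 to 46620.0 CPM (CD4/CD8-selected). *Krt8* varied by 1.40-fold between its lowest and highest run of CD11c-selected cells and 1.43-fold in CD4/CD8-selected cells, and *Epcam* by 1.62-fold and 1.53-fold. *Krt19* varied most in the CD11c-selected matrix, by 9.63-fold: 5 runs lay between 1856 and 2352 CPM and run 2, with 31 cells, at 244 CPM. In the same run *Csn3* (9101 CPM) and *Lcn2* (11108 CPM) were at their highest, as was *Krt14* (548 CPM). In CD4/CD8-selected cells *Krt19* varied by 2.75-fold, and the run with the lowest *Krt19* (962 CPM) again had the highest *Csn3* (8719.6 CPM) and *Lcn2* (12956.5 CPM). *Wfdc18* was highest in run 4 of the CD11c-selected matrix (17108 CPM), which held 4 such cells. *Krt14* ranged from 77.9 to 548 CPM and from 194 to 649 CPM.

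**Figure D4:**
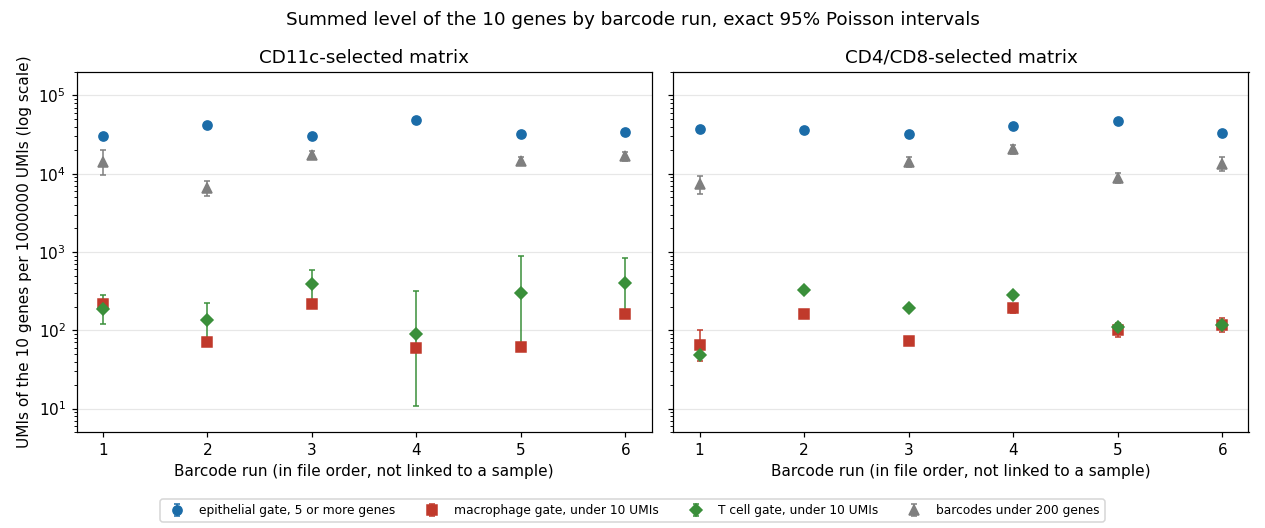
Summed level of the 10 genes in UMIs per 1000000 UMIs (log scale) in each barcode run of both matrices, for cells with 5 or more genes, macrophages and T cells with under 10 UMIs of the genes, and barcodes under 200 genes, with exact 95% Poisson intervals. The epithelial points stay within 30420.3 to 48235 CPM while the macrophage points of CD11c-selected cells run from 60.0 to 218 CPM and the T cell points of CD4/CD8-selected cells from 47.8 to 324 CPM.

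Macrophages were gated by 5 or more UMIs of *C1qa* without *Cd3e*, and T cells by 2 or more UMIs of *Cd3e* with fewer than 5 of *C1qa*, both outside the epithelial gate. The macrophage gate held 6545 CD11c-selected and 940 CD4/CD8-selected cells. The T cell gate held 11843 CD4/CD8-selected cells but only 42 CD11c-selected cells, too few for a fold. All 10 genes were 10-fold or more higher in the epithelial than in the macrophage gate in CD11c-selected cells, where 9.71% of the 12752 genes with at least 50 UMIs in both classes together were. The same held for all 10 over macrophages in CD4/CD8-selected cells, where 9.99% of 11450 genes were, and over T cells, where 13.1% of 12510 genes were. The median fold of the 10 genes was 178 over macrophages in both matrices and 186 over T cells, against 1.21, 1.37 and 1.14 over all genes tested. A few cells of the compared gates held much of the trace, as described below. Without cells of 10 or more UMIs of the 10 genes, the median fold was 343 and 534 over macrophages and 243 over T cells, all 10 genes were still past 10-fold, and 9.71%, 10.3% and 13.2% of all genes tested were. The summed level of the 10 genes in CD4/CD8-selected macrophages, the base of their folds, was 255 CPM with all runs, 604 CPM without run 3 and 121 CPM without run 4.

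The fold differed among the 10 genes. Over CD11c-selected macrophages it ran from 90.2 (interval 66.3 to 125) for *Elf5* and 108 (105 to 111) for *Wfdc18* to 274 (261 to 288) for *Lcn2* and 421.5 (302 to 608) for *Krt14*. Over CD4/CD8-selected macrophages *Elf5* (72.6; 44.3 to 128) and *Wfdc18* (82.6; 78.6 to 86.8) were again lowest, and *Krt7* was highest at 482 (287 to 882). Over T cells *Csn3* (104; 101 to 108) and *Wfdc18* (109; 106 to 113) were lowest and *Krt7* (399; 316 to 512) and *Krt14* (398; 317 to 507) highest. *Wfdc18* was thus among the 2 lowest folds of each comparison, although its pooled level in the epithelial gate was first or second, and it was also among the 2 lowest when cells of 10 or more UMIs of the genes were left out. *Krt8* went from 131 to 500.4 over CD4/CD8-selected macrophages with those cells left out. Of the list of 14 other epithelial genes, 12, 13 and 14 were past 10-fold in the same comparisons. Of the lists of other cell types, 3 of 10 T cell genes (*Cd3e*, which that gate excludes, *Cd3d* and *Cd3g*) passed over CD4/CD8-selected macrophages. The neutrophil gene *S100a8* and the fibroblast gene *Dcn* passed over CD11c-selected macrophages and over T cells.

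The trace of the 10 genes in other cells was small in each cell but widespread. In macrophages it summed to 199 CPM (196 to 202) in the CD11c-selected and 255 CPM (248 to 263) in the CD4/CD8-selected matrix, and in CD4/CD8-selected T cells to 232 CPM (228 to 235). At least 1 UMI of the 10 genes was found in 59.2% and 75.7% of macrophages and in 55.2% of T cells. Thinned to 1000 UMIs, these shares were 15.8%, 13.1% and 17.4%, so the order of the unthinned shares followed depth. *Wfdc18* alone was found in 34.4% and 43.7% of macrophages and 26.0% of T cells, and *Krt14* in 0.489%, 1.17% and 0.270%.

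A few cells held much of the trace. In CD11c-selected macrophages, 8 cells with 100 or more UMIs of the 10 genes held 34.4% of the trace (5146 of 14963 UMIs), and all 8 had *Cdh1*. In CD4/CD8-selected macrophages 3 cells held 60.2% (2649 of 4402 UMIs), and in T cells 8 cells held 25.1% (4274 of 17038 UMIs), of which 7 had *Cdh1*. These cells carried a median of 8, 9 and 8 of the 10 genes and a median of 36158.5, 40672 and 17334 UMIs, more than the 8917, 16397 and 5090.0 UMIs of their gates. The single CD11c-selected T cell with 1230 of the 1303 UMIs of its gate had 64151 UMIs, *Cdh1* and 6 of the genes. Markers of 2 cell types and high depth thus went together in them, and whether they were doublets was not tested. The other cells were examined after leaving out those with 10 or more UMIs of the genes, a threshold set after the values had been seen.

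The remaining macrophages and T cells carried about 1 to 2 UMIs of the 10 genes each: 1.38 per CD11c-selected macrophage, 1.75 per CD4/CD8-selected macrophage and 1.07 per T cell. The number per cell grew slowly with depth. CD11c-selected macrophages with under 2500 UMIs carried 0.725 (0.671 to 0.783) UMIs of the genes and those with 20000 or more carried 1.99 (1.90 to 2.08), while the level fell from 448 to 64.7 CPM. T cells carried 0.738 (0.674 to 0.807) and 1.57 (1.37 to 1.79) UMIs in the same classes of depth, and their level fell from 418 to 63.6 CPM. The trace was therefore not in proportion to the UMIs of the cell. *Cdh1* went with the trace in T cells: 22.0% of T cells without a UMI of the 10 genes had a *Cdh1* UMI, 24.5% of those with 1, 28.8% of those with 2 to 4, 33.1% of those with 5 to 9, 6 of 12 with 10 to 99 and 7 of 8 with 100 or more. Their median depth went from 4745 UMIs without the genes to 17334 in the last class, and its part in this was not tested.

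The trace differed between runs more than the epithelial level did. In CD11c-selected macrophages with under 10 UMIs of the genes, runs 1, 3, 4 and 6 had 2.30, 2.44, 2.15 and 1.82 UMIs per cell and runs 2 and 5 had 0.636 and 0.641. The epithelial gate made up 5.16%, 14.5%, 3.01% and 5.12% of the UMIs in runs 1, 3, 4 and 6, and 2.39% and 1.16% in runs 2 and 5. In CD4/CD8-selected T cells the trace ran from 0.263 UMIs per cell in run 1 to 2.50 in run 2, with the epithelial gate at 4.61% and 4.66% of the UMIs of those runs. The share of epithelial UMIs was thus lowest where the macrophage trace was lowest but was nearly equal in the T cell runs that differed most. In CD4/CD8-selected T cells with under 10 UMIs of the genes, *Epcam* varied 1.79-fold between runs (13.4 to 24.0 CPM). The other genes varied from 4.07-fold (*Krt18*) to 17.2-fold (*Elf5*) there.

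The make-up of the trace was not that of the epithelial cells. *Wfdc18* gave 22.9% of the UMIs of the 10 genes in CD11c-selected cells with 5 or more genes and 38.1% (37.1% to 39.2%) in macrophages with under 10 UMIs of the genes. *Lcn2* gave 19.7% in the former and 10.7% (10.1% to 11.4%) in the latter. In CD4/CD8-selected T cells with under 10 UMIs, *Wfdc18* gave 33.9% (33.1% to 34.8%) and *Lcn2* 14.3% (13.7% to 15.0%), against 22.2% and 22.9% in cells with 5 or more genes. *Csn3* was higher in the trace too, at 20.6% against 15.3% and 19.5% against 15.3%, and *Krt19* lower, at 2.82% against 6.08% and 2.85% against 4.85%.

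Most of these shifts were seen within most runs as well. In macrophages the share of *Wfdc18* was above that of the cells with 5 or more genes of the same run in 6 of 6 runs of both matrices, and the share of *Lcn2* below it in 6 of 6. In CD4/CD8-selected T cells *Wfdc18* was higher in 5 of 6 runs and *Lcn2* lower in 6 of 6. *Krt8* was lower in 5 of 6 runs in each of these 3 comparisons, *Csn3* was higher in 5 of 6, and *Krt18* was lower in 4 of 6. *Krt19* was lower in 4 of 6 runs of CD11c-selected macrophages and in 5 of 6 of CD4/CD8-selected macrophages and T cells. The share of *Epcam* in CD4/CD8-selected T cells was higher in 3 of 6 runs and lower in 3. It lay between 6.64% and 28.1%, against 8.79% to 12.4% in the cells with 5 or more genes. The source of the trace was not tested.

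**Figure D5:**
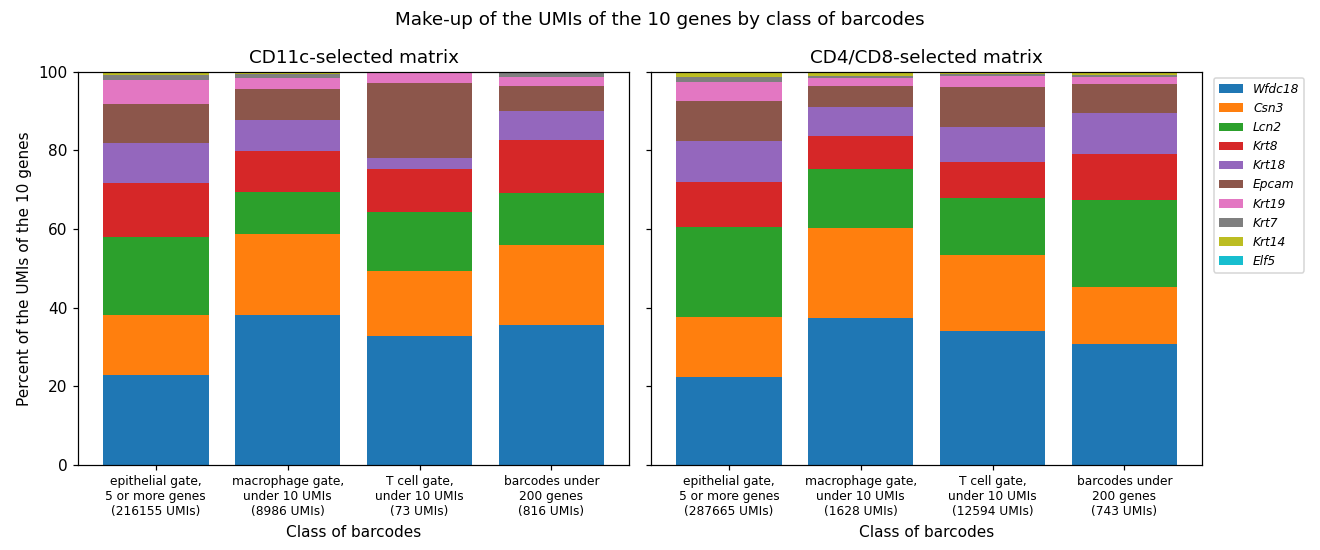
Percent of the UMIs of the 10 genes that each gene contributed (stacked bars, summing to 100) in epithelial gate cells with 5 or more genes, macrophages and T cells with under 10 UMIs of the genes, and barcodes under 200 genes, with the number of UMIs in brackets. *Wfdc18* takes 22.9% and 22.2% of the epithelial bars and between 30.7% and 38.1% of all others, and the CD11c-selected T cell bar rests on 73 UMIs.

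The trace was also counted in the smaller gates. The 117 CD11c-selected neutrophils (at least 1 UMI of *Csf3r* and 5 of *S100a9*, without *Cd3e*) carried 2176 UMIs of the 10 genes with a mean of 18.6 and a median of 2 per cell, and the 202 migratory dendritic cells (*Ccr7* with 2 or more UMIs of *Fscn1*, without *Cd3e*) 4057 UMIs with a mean of 20.1 and a median of 1. Both means lay far above the medians. Fibroblasts (5 or more UMIs of *Col1a1* without *Ptprc* and *Cdh1*) carried 2.03 and 2.43 UMIs of the genes per cell and endothelial cells (*Cdh5* without *Ptprc*, *Cdh1* and 5 UMIs of *Col1a1*) 2.51 and 1.84.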

How the data were processed

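Single cells of CD11c-selected and CD4/CD8-selected samples from MMTV-PyMT tumors were profiled on the 10x Genomics platform. For each selection, the authors deposited a single table of raw UMI counts (genes by cells, whole numbers), and the submitters' processing notes name Cell Ranger 3.0.2 and mm10. Their annotation and cell filters: not given in the sources used here. In GENCODE M21, 30431 of 31053 gene symbols were found (98.0%). Levels are summed UMIs per 1000000 UMIs of a class of cells, so deep cells weigh more. Barcodes under 200 detected genes were left out, and gates were set on raw UMIs of the genes named in the text, without clustering. Thinning to 1000 or 2000 UMIs per cell was random (seed 1). A fold was called at 10 or more, among genes with at least 50 UMIs in both classes together, with 3 UMIs as the floor for a class at 0, and the calling was tested on simulated data. Python 3.11.15, numpy 2.4.6, scipy 1.17.1, pandas and matplotlib were used.

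The 10 genes, the marker lists and the gates were chosen with earlier results of these data known. The genes named are the 10, list genes at 100 CPM or more in the epithelial gate and defining markers of other types, and the genes outside the list with the highest r to each of the 10 (the first 3 were computed per gene). *Csn1s1*, *Csn2*, *Cited1*, *Wnt4*, *Esr1*, *Pgr*, *Prlr*, *Krt5*, *Cd3d*, *Cd3g*, *S100a8*, *Dcn* and *Col3a1* were singled out after their values had been seen, as were the classes of 5 or more genes, of 10 or more UMIs, and of cells with *Krt19*. Genotypes were not compared, since barcodes carry no sample name, and no test was run. The alternatives tried were other gate thresholds, no or stricter cell filters, thinning, means over cells, other fold and UMI minimums, and leaving out each barcode run.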

Additional observations from a re-analysis of the deposited data

Results flagged for a closer look

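Barcodes with under 200 detected genes, which entered no comparison between gates, carried the 10 genes at a high level. The 341 such CD11c-selected barcodes had 816 of their 58884 UMIs from the 10 genes, or 13858 CPM, and the 295 CD4/CD8-selected barcodes had 743 of 59002, or 12593 CPM. They were singled out because a signal appeared in data outside the main measurement, above the level in the macrophage (199 and 255 CPM) and T cell gates (232 CPM in the CD4/CD8-selected matrix). Their median depth was 170 and 181 UMIs and they carried 2.39 and 2.52 UMIs of the genes per barcode. *Wfdc18* led in both, with 35.7% (32.4% to 39.1%) and 30.7% (27.4% to 34.1%) of these UMIs, while *Lcn2* gave 13.2% in CD11c-selected and 22.1% in CD4/CD8-selected barcodes. By run the level lay between 6570.5 and 17321 CPM and between 7310.1 and 20594 CPM, with 1 run of each matrix holding no such barcode.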

How the results depend on the processing

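In what follows the CD11c-selected value stands before the CD4/CD8-selected one, and the cause of each shift was not tested. The summed level in the epithelial gate (31993 and 34637 CPM) was 33417 and 36105 CPM with 2 or more UMIs of *Cdh1*, 13510.5 and 8595 CPM with any *Ptprc*, 31481 and 36868 CPM without *C1qa* and *Cd3e*, 28262 and 23432 CPM as a mean over cells, and 30972 to 33669 and 33602 to 36426 CPM without 1 barcode run. The share of gate cells with 5 or more genes (79.7% and 62.5%) was 96.8% and 92.8% with 2 UMIs of *Cdh1*, 27.4% and 6.24% with any *Ptprc*, 87.2% and 79.4% without *C1qa* and *Cd3e*, 70.0% and 56.3% thinned to 1000 UMIs, and 71.0% to 84.2% and 56.8% to 66.4% without 1 run.

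The macrophage trace (199 and 255 CPM) was 335 and 524 CPM with a minimum of 1 UMI of *C1qa*, 131 and 112 CPM without cells carrying *Cdh1*, 122 and 95.5 CPM without cells of 10 or more UMIs of the genes, 233 CPM as a mean over CD11c-selected cells, and 166 to 235 and 121 to 604 CPM without 1 run. The T cell trace (3191 and 232 CPM) was 2742 and 329 CPM with 1 UMI of *Cd3e*, 202 and 199.5 CPM with 4, 185 and 180.5 CPM without *Cdh1*, 212 and 172 CPM without cells of 10 or more UMIs, 759.9 and 236 CPM as a mean over cells, and 177 (without run 3) to 4555 and 202 to 273 CPM without 1 run. The settings without *C1qa* and *Cd3e* and without cells of 10 or more UMIs were chosen after seeing the data. The numbers of genes past the fold stayed within 1.5 times under the other minimums and without cells of 10 or more UMIs.

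No paired analysis was possible because the cells carry no sample name and no test was run.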
